A study of Mus musculus with 12 samples.

Results

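Left ventricle apex RNA of lincRNA-p21 knockout mice was set against that of heterozygous littermate controls over sham and pressure-overload surgery together, to find genes whose level differed between the genotypes in the same direction after both operations. All 12 libraries of the study entered this comparison, 6 from knockouts (KO) and 6 from controls, with surgery as a covariate. It was made on 13916 genes of 56350 in the deposited table, those with a normalised read count of at least 10 in at least 3 libraries.

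The study profiled polyadenylated RNA by sequencing 8 weeks after surgery. Its 4 groups of 3 libraries were KO after transverse aortic constriction (TAC, a ligature that narrows the aorta and loads the left ventricle with pressure), heterozygous controls after TAC, KO after sham surgery and heterozygous controls after sham surgery. The knockout is global, so every cell type of the heart lacks the gene, and the controls carry 1 altered allele, so no wild-type ventricle is included. The sources used here give no strain, sex, age, deleted part of the locus or number of animals per library, and p-values therefore measure the spread between these libraries.

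LincRNA-p21, the product of Trp53cor1, is a long noncoding RNA that the tumour suppressor p53 switches on after DNA damage and other stress. Its gene lies next to Cdkn1a, which encodes the cell cycle inhibitor p21, another direct p53 target, and the noncoding RNA has been described to act on its neighbour and, through partner proteins, on genes elsewhere. Under pressure overload the ventricle enlarges its cardiomyocytes, deposits collagen and other matrix through activated fibroblasts, and lowers fatty acid oxidation genes.

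Recovered whole reads numbered from 10323605 to 13238934 per library. The first principal component of the tested genes held 32.6% of the variance and set the 3 control TAC libraries apart from the other 9. On the second, with 14.4% of the variance, control sham replicate 3 stood apart at -46.8, and KO TAC replicate 3 was at -15.6 where the other KO TAC libraries were at 22.9 and 33.7. The share of reads from the mitochondrial chromosome was 12.5% in control sham replicate 3, the lowest of the 12, and 20% in KO TAC replicate 2, the highest. Results that turn on control sham replicate 3 or KO TAC replicate 3 are given with and without them.

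No read of Trp53cor1 (chr17:29057430-29079179, minus strand of GRCm38) was found in any KO library, and few were found in the controls. The reads numbered 0, 0 and 0 in KO TAC libraries, against 4, 0 and 3 in control TAC libraries, and 0, 0 and 0 in KO sham libraries, against 2, 0 and 2 in control sham libraries. Summed over genotype, this was 0 of 72710005 reads in KO, where a floor of 3 reads would be 0.0413 CPM (reads scaled to the library total), and 11 of 69704245 reads in controls, or 0.158 CPM. The control level was thus 3.82 times the KO floor, which covers counting error only. That ratio takes the 11 control reads as exact, so it is not a lower bound on the fold difference. A two-sided exact permutation test that exchanged genotypes within each surgery gave p = 0.08, or 0.2 after Benjamini-Hochberg adjustment over 6 tests of Trp53cor1 and Cdkn1a. The 400 exchanges allow a smallest p of 0.005. Within a surgery the exact p was 0.4 after TAC and 0.4 after sham, where 3 against 3 libraries allow no p under 0.1, and over both surgeries it was 0.02 to 0.08 when 1 library was left out. The value of 0.02 arose where the library left out was one of the controls that held no read, a choice that follows the outcome, and each other omission gave 0.08.

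Cdkn1a (chr17:29090976-29100727, plus strand), which starts 11.8 kb from the start of Trp53cor1 on the opposite strand, was lower in all 6 KO libraries than in 5 of the 6 control libraries, without passing a test. Its normalised read counts were 266, 236 and 293 in KO TAC libraries, against 560.2, 1041 and 135 in control TAC libraries, and 300.1, 265 and 269.6 in KO sham libraries, against 361, 746 and 658 in control sham libraries. The 6 KO libraries lay close together, the control sham libraries were all above the KO sham libraries, and control TAC replicate 3 was below every KO library. The difference of log2(value + 1), KO minus control, was -0.86 ± 0.41 (SE, 6 KO and 6 control libraries), with an exact permutation p of 0.07, or 0.2 adjusted over the 6 tests, and a limma adjusted p of 0.38 over all tested genes. When 1 library was left out, the difference was -1.27 (exact p = 0.005) without control TAC replicate 3, the control library that went the other way, and -0.54 (exact p = 0.185) without control TAC replicate 2. The other 10 omissions gave exact p of 0.07 to 0.185. The 250 bases before its annotated start are shown because p53 acts on this gene through sites in its promoter region (RefSeq, GRCm38.p6, chr17:29090729-29090978, plus strand). Capitals mark matches to the p53 half-site, read on either strand:
Cdkn1a: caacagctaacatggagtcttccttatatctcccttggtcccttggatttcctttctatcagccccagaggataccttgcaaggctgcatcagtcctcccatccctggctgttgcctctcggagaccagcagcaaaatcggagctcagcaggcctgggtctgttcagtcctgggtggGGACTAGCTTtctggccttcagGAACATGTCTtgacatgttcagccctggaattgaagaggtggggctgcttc
The window held 2 matches, and 7.13% of the 32851 windows of that length before RefSeq gene starts held at least 1. A match is a description of the letters and says nothing of binding.

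**Figure D1:**
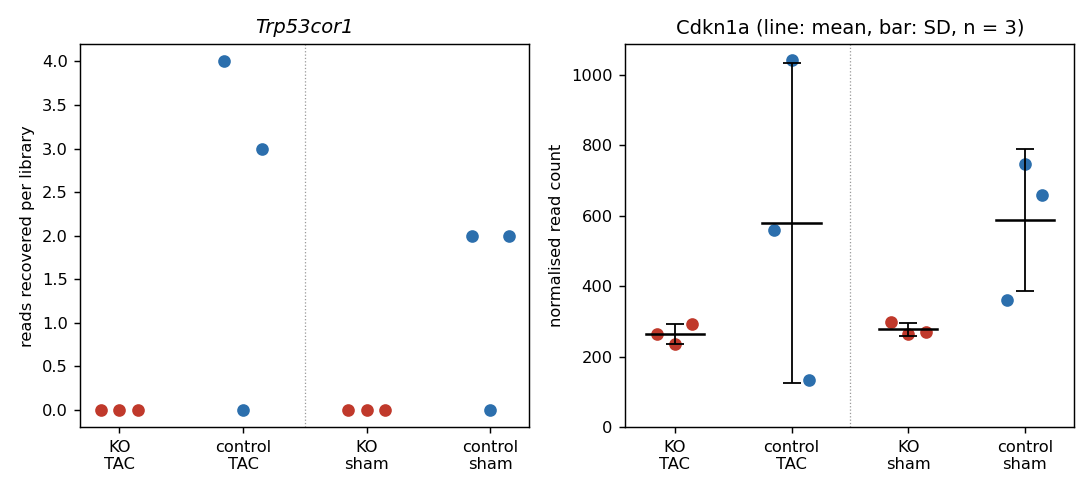
Reads of Trp53cor1 recovered per library (left) and normalised read count of Cdkn1a per library (right) in KO and control libraries after TAC and after sham. Points are libraries, red for KO and blue for control; lines and bars on the right are the mean and SD of 3 libraries. The 6 KO libraries hold no Trp53cor1 read, and Cdkn1a in control TAC replicate 3 is below all KO libraries.

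With surgery as a covariate, no gene passed for genotype. limma-trend on log2(value + 1) called 0 of 13916 genes (0.0%) at a Benjamini-Hochberg adjusted p under 0.05, the smallest adjusted p was 0.083, and 1921 genes (13.8%) had an unadjusted p under 0.05. Of these, 1774 (12.7%) had the same sign after both surgeries, 1023 higher (7.35%) and 751 lower (5.4%) in KO. On the recovered reads the same model called 1 gene in edgeR's quasi-likelihood test (0.00719%), Sln, with 1944 genes (14%) at an unadjusted p under 0.05. DESeq2 called 186 genes (1.34%), of which 184 (1.32%) had the same sign, 77 higher (0.553%) and 107 lower (0.769%) in KO. limma-voom with library quality weights called 252 (1.81%), of which 241 (1.73%) had the same sign, 138 higher (0.992%) and 103 lower (0.74%). Without control sham replicate 3, limma-trend called 28 genes, 11 higher (0.0796%) and 17 lower (0.123%) in KO, all with the same sign after both surgeries, and leaving out any other single library gave 0 calls.

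A model with a mean for each of the 4 groups, in which the genotype difference may take another size in each surgery, gave more calls for the average of both differences. It called 88 genes (0.632%), of which 81 had the same sign after TAC and after sham, 29 higher (0.208%) and 52 lower (0.374%) in KO. Most of their difference came from TAC. Of these 81 genes, 79 differed more after TAC than after sham, 81 had an unadjusted p under 0.05 after TAC and 22 after sham, and 32 had no overlap between KO and control libraries in either surgery. The count was 520 without control sham replicate 3, 503 without KO TAC replicate 3 and 15 without control TAC replicate 2.

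Taken one surgery at a time, the genotypes differed widely after TAC and not detectably after sham. Within TAC 1145 genes passed (8.23%) and within sham 0 (0.0%) in limma-trend, with 3477 (25%) and 604 genes (4.34%) at an unadjusted p under 0.05. An unadjusted p under 0.05 in both surgeries with the same direction was found for 92 genes (0.661%), 45 higher (0.323%) and 47 lower (0.338%) in KO, and in opposite directions for 69 genes (0.496%). Same-signed differences in both surgeries were found for 7011 genes (50.4%), 3921 higher (28.2%) and 3090 lower (22.2%) in KO. Across the 13916 genes the TAC and the sham difference, which share no library, had a Pearson correlation of 0.033 and a Spearman correlation of 0.0069. Genes share their libraries and are not independent replicates.

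**Figure D2:**
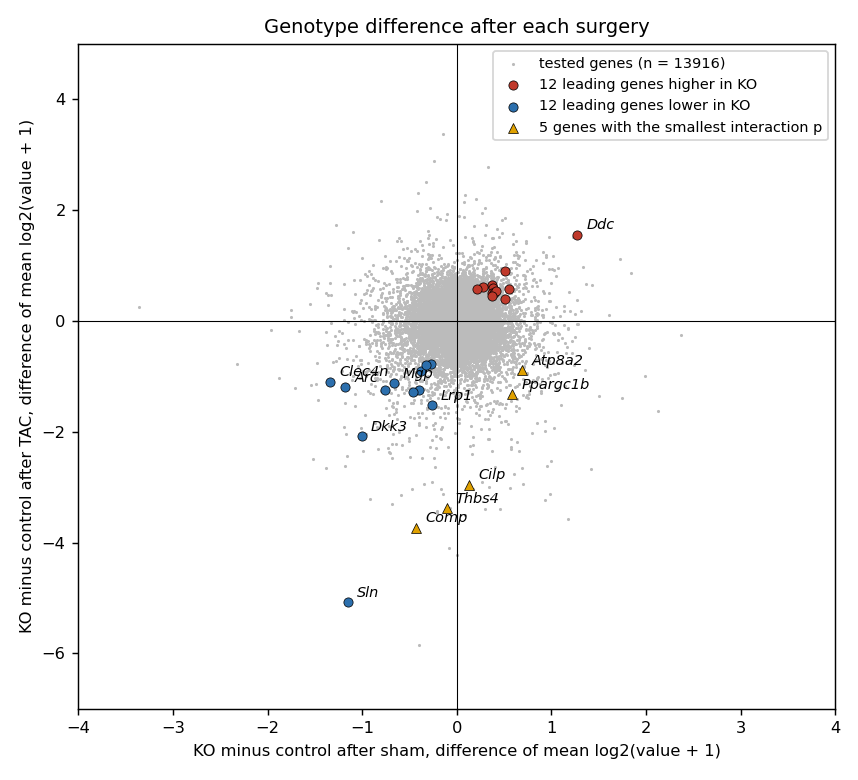
Difference of mean log2(value + 1), KO minus control, after sham (horizontal) and after TAC (vertical) for the 13916 tested genes (grey), the 12 leading genes higher in KO (red), the 12 lower in KO (blue) and the 5 genes with the smallest interaction p (yellow). The cloud shows no common slope, with a Pearson correlation of 0.033, and most leading lower genes lie further from 0 after TAC than after sham.

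KO and control libraries that did not overlap in either surgery, with the same direction in both, were found for 238 genes (1.71%), 159 higher (1.14%) and 79 lower (0.568%) in KO, while 135 genes (0.97%) did not overlap in opposite directions. All 6 KO libraries were above all 6 control libraries for 36 genes (0.259%) and below them for 34 genes (0.244%). From the 238 genes the 12 higher and 12 lower in KO with the smallest p, leaving out predicted genes and those under 1 CPM, are described next as the leading genes. Their separation is part of how they were chosen and is not tested again. Their adjusted p in limma-trend ran from 0.083 to 0.194, so they are given as values and not as changes.

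**Figure D3:**
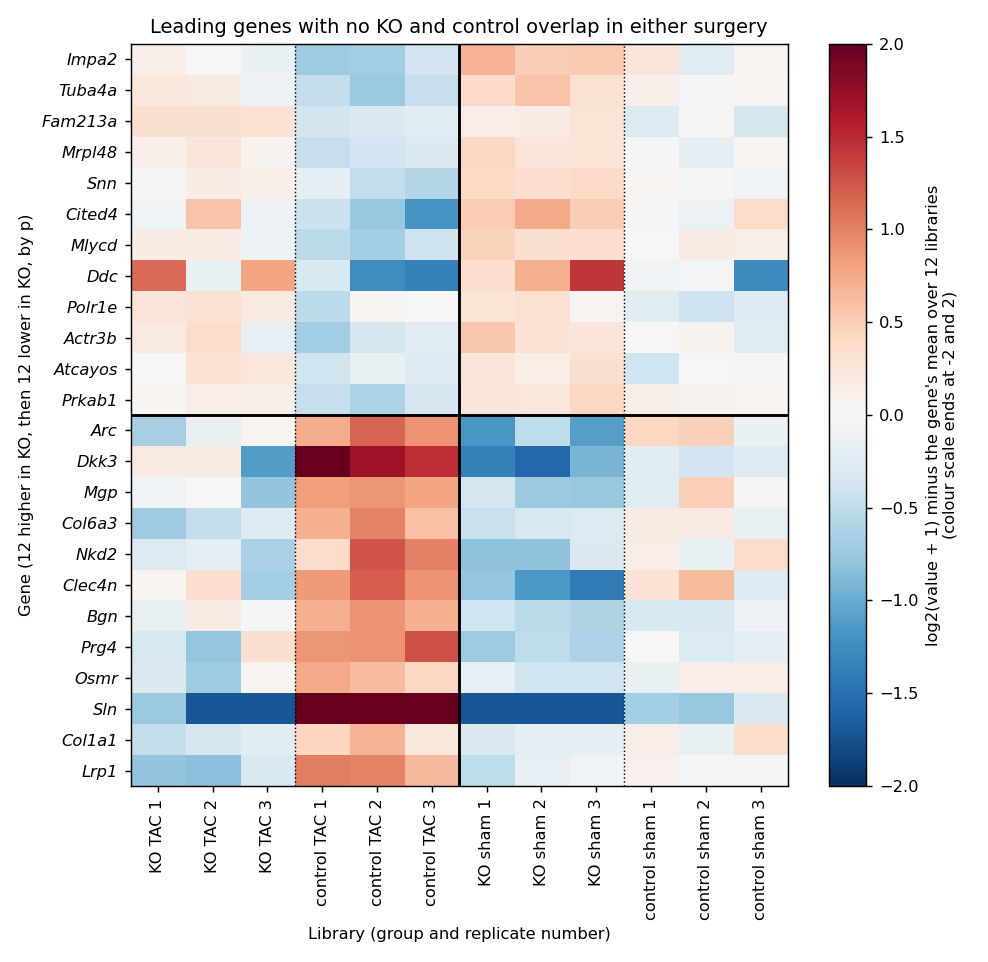
Log2(value + 1) of the 24 leading genes, minus each gene's mean over the 12 libraries, in KO TAC, control TAC, KO sham and control sham libraries from left to right. Red is above and blue below the gene's mean, and the colour scale ends at -2 and 2. In each surgery the upper 12 genes are higher and the lower 12 lower in all 3 KO libraries than in all 3 controls, with the widest contrast for Sln and Dkk3 after TAC.

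The largest set among the leading lower genes encodes matrix and secreted proteins: Mgp, Col6a3, Bgn, Prg4, Col1a1 and Dkk3. In bulk RNA, fewer cells of a type and less RNA per cell cannot be told apart. Mgp, matrix Gla protein, an inhibitor of calcification of vessels and cartilage, had 1926, 2009.8 and 1170.2 normalised reads in KO TAC libraries, against 3609.8, 3729 and 3515 in control TAC libraries, and 1614, 1226 and 1201 in KO sham libraries, against 1719, 2817 and 1971 in control sham libraries. The TAC groups were far apart, and the lowest control sham library was just above the highest KO sham library. Its difference over both surgeries was -0.90 ± 0.16 on the log2 scale (SE; limma adjusted p = 0.083), with -1.13 ± 0.21 after TAC and -0.67 ± 0.21 after sham.

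Col6a3 (chr1:90765923-90843971, minus strand), the alpha 3 chain of the microfibrillar collagen VI, had 446, 524 and 606 in KO TAC libraries, against 1191, 1453 and 1093 in control TAC libraries, and 532, 585 and 604 in KO sham libraries, against 811, 816 and 657 in control sham libraries. All 6 KO libraries were below all 6 control libraries. The difference was -0.82 ± 0.15 (limma adjusted p = 0.083), with -1.24 ± 0.15 after TAC and -0.40 ± 0.15 after sham, and its limma adjusted p in the model of 4 group means was 0.0015. Col1a1, the main chain of fibrillar collagen I, also had 6 KO libraries below 6 control libraries: 1049.6, 1154 and 1264 in KO TAC libraries, against 1973, 2346 and 1712 in control TAC libraries, and 1201, 1287 and 1294 in KO sham libraries, against 1595, 1321 and 1855 in control sham libraries. After sham the highest KO library was close to the lowest control library. The difference was -0.56 ± 0.12 (limma adjusted p = 0.139).

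Bgn (chrX:73483602-73495933, plus strand), biglycan, a small leucine-rich proteoglycan that binds collagen, had 3045, 3741 and 3290.4 in KO TAC libraries, against 5542, 6271 and 5522 in control TAC libraries, and 2575, 2315 and 2226 in KO sham libraries, against 2734, 2741 and 3121 in control sham libraries. The gap between the groups was wide after TAC and small after sham. Its difference was -0.53 ± 0.11 (limma adjusted p = 0.139). Prg4, the lubricating proteoglycan lubricin, had 105, 76.5 and 165 in KO TAC libraries, against 243, 245 and 323 in control TAC libraries, and 80.4, 92.1 and 85 in KO sham libraries, against 132, 109 and 114 in control sham libraries. Its difference was -0.87 ± 0.19 (limma adjusted p = 0.139), and the difference after TAC, -1.28 ± 0.23, was larger than that after sham, -0.46 ± 0.23, with no passing test of that inequality (limma interaction adjusted p = 0.22).

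Dkk3, a secreted glycoprotein of the Dickkopf family, and Nkd2, an intracellular inhibitor of Wnt signalling, were lower in KO in each surgery. Dkk3 had 57.9, 57.7 and 22.9 in KO TAC libraries, against 255, 168 and 144 in control TAC libraries, and 19.3, 16.4 and 26.2 in KO sham libraries, against 43.7, 38.9 and 42.4 in control sham libraries. KO TAC replicates 1 and 2 exceeded the control sham libraries, so surgery and genotype overlap for this gene. Its difference was -1.54 ± 0.26 (limma adjusted p = 0.083), with -2.08 ± 0.33 after TAC and -1.0 ± 0.33 after sham. Nkd2 had 41.5, 44.4 and 31.6 in KO TAC libraries, against 64.9, 122 and 102 in control TAC libraries, and 28.5, 28.3 and 40.7 in KO sham libraries, against 55.4, 45.6 and 65.3 in control sham libraries. All 6 KO libraries were below all 6 control libraries, with a difference of -1.0 ± 0.20 (limma adjusted p = 0.139).

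Arc (chr15:74669083-74672570, minus strand), an immediate early gene whose protein is best known for its role at synapses, had the smallest p of the 13916 genes and nearly equal differences in both surgeries. It had 26.1, 37.7 and 43.6 normalised reads in KO TAC libraries, against 71.4, 95.8 and 79.2 in control TAC libraries, and 18.3, 29.2 and 19 in KO sham libraries, against 56.5, 58.9 and 38.2 in control sham libraries. The control sham library at 38.2 was below 1 KO TAC library, but within each surgery the groups were apart. The difference was -1.19 ± 0.20 (limma adjusted p = 0.083), with -1.20 ± 0.28 after TAC and -1.18 ± 0.28 after sham.

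Receptors among the leading lower genes were Osmr, Lrp1 and Clec4n. Osmr, the oncostatin M receptor subunit, had 273, 204 and 346 in KO TAC libraries, against 563, 509.9 and 446 in control TAC libraries, and 296, 252 and 251 in KO sham libraries, against 305, 366 and 367 in control sham libraries. Its difference was -0.64 ± 0.14 (limma adjusted p = 0.139). After sham the highest KO and lowest control library were 296 and 305, a gap smaller than the spread within either group.

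Lrp1 (chr10:127538161-127621148, minus strand), a large endocytic receptor that clears proteases and matrix proteins, had 1510.2, 1463 and 2098 in KO TAC libraries, against 5269.8, 5142 and 4079.8 in control TAC libraries, and 1826, 2318 and 2439.8 in KO sham libraries, against 2759.5, 2570.0 and 2521 in control sham libraries. Among TAC libraries it was lower in KO than in controls, with a difference of -1.52 ± 0.16 on the log2 scale (limma adjusted p = 9.3e-05), and its difference after sham was -0.26 ± 0.16. These differences were unequal (limma interaction adjusted p = 0.025), the only leading gene for which that test passed. Clec4n, the C-type lectin Dectin-2 of myeloid cells, had 24.1, 29.9 and 14.2 in KO TAC libraries, against 43.3, 55.6 and 44.8 in control TAC libraries, and 13.2, 10 and 8.14 in KO sham libraries, against 28.8, 37 and 19.5 in control sham libraries. Its difference was -1.22 ± 0.24 (limma adjusted p = 0.139), while the 14 tested macrophage markers had a median of -0.09. Of these markers, 2 were higher and 6 lower in KO in both surgeries, where 28.2% and 22.2% of all tested genes were.

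Sln, sarcolipin, a small inhibitor of the sarcoplasmic calcium pump that mouse atria make in abundance, was the gene called by edgeR (adjusted p = 0.00048). It entered the tests only through the 3 control TAC libraries, the group in which it was high, so it was bound to differ and its p supports nothing. It had 0.966, 0 and 0 in KO TAC libraries, against 24.9, 40.2 and 69.9 in control TAC libraries, and 0, 0 and 0 in KO sham libraries, against 1.07, 0.949 and 1.7 in control sham libraries. The sham values are at 0 to 2 reads, at or under a floor of 3 reads, so the difference rests on TAC. Markers of atrial cardiomyocytes, a list that holds Sln, differed in both directions after TAC. Among TAC libraries 4 of the 10 tested passed lower and 2 higher in KO (limma adjusted p under 0.05), against 575 and 570 of all 13916 genes. Myl7, the atrial myosin light chain, had 2.9, 2.22 and 0 in KO TAC libraries, against 115, 95.8 and 212 in control TAC libraries, and 18.3, 10 and 1.81 in KO sham libraries, against 25.6, 5.7 and 6.78 in control sham libraries. The 12 atrial markers, Dkk3 among them, summed to 2479 to 3038 in KO TAC libraries, against 3763 to 7136 in control TAC libraries, and 2227 to 2366 in KO sham libraries, against 1844 to 2453 in control sham libraries, so their sums were apart after TAC and overlapped after sham. Of the 10 tested, 1 was higher and 3 were lower in KO in both surgeries, where 28.2% and 22.2% of all tested genes were. None of the 12 was at 0 in every library. The part of atrial tissue in the differences of Sln and Dkk3 was not tested.

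The start regions of Col6a3, Bgn and Lrp1 are shown for the lower genes, as the 250 bases before each RefSeq start in GRCm38.p6. Capitals mark matches on either strand to any of 6 motifs: the GC box GGGCGG, the TATA box TATAAA, the AP-1 site TGANTCA, the STAT site TTCNNNGAA, the nuclear receptor half-site AGGTCA and the p53 half-site. Col6a3 lies at chr1:90843972-90844221, minus strand, Bgn at chrX:73483351-73483600, plus strand and Lrp1 at chr10:127621149-127621398, minus strand.
Col6a3: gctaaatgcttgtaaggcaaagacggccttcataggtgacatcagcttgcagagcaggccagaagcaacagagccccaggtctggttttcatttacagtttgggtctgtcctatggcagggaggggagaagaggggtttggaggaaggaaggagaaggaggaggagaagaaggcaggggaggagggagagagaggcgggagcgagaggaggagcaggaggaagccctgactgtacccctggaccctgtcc
Bgn: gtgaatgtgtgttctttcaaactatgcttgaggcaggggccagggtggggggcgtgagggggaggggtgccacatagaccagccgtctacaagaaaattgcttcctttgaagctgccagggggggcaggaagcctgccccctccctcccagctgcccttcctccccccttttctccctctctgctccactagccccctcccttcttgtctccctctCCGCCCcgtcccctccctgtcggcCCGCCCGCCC
Lrp1: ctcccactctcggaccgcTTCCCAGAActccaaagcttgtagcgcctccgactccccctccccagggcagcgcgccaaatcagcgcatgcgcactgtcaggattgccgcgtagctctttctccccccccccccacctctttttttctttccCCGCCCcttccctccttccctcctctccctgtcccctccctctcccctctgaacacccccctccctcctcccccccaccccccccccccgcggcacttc
The Col6a3 window held none of the 6, the Bgn window held 3 GC boxes, and the Lrp1 window held 1 GC box and 1 STAT site. RefSeq windows were matched for 5 of the 12 lower leading genes, of which 3 held a GC box and 1 a STAT site, where 32.7% and 7.02% of all 32851 windows did. None of the 5 held an AP-1 site, which 6.75% of all windows did.

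**Figure D4:**
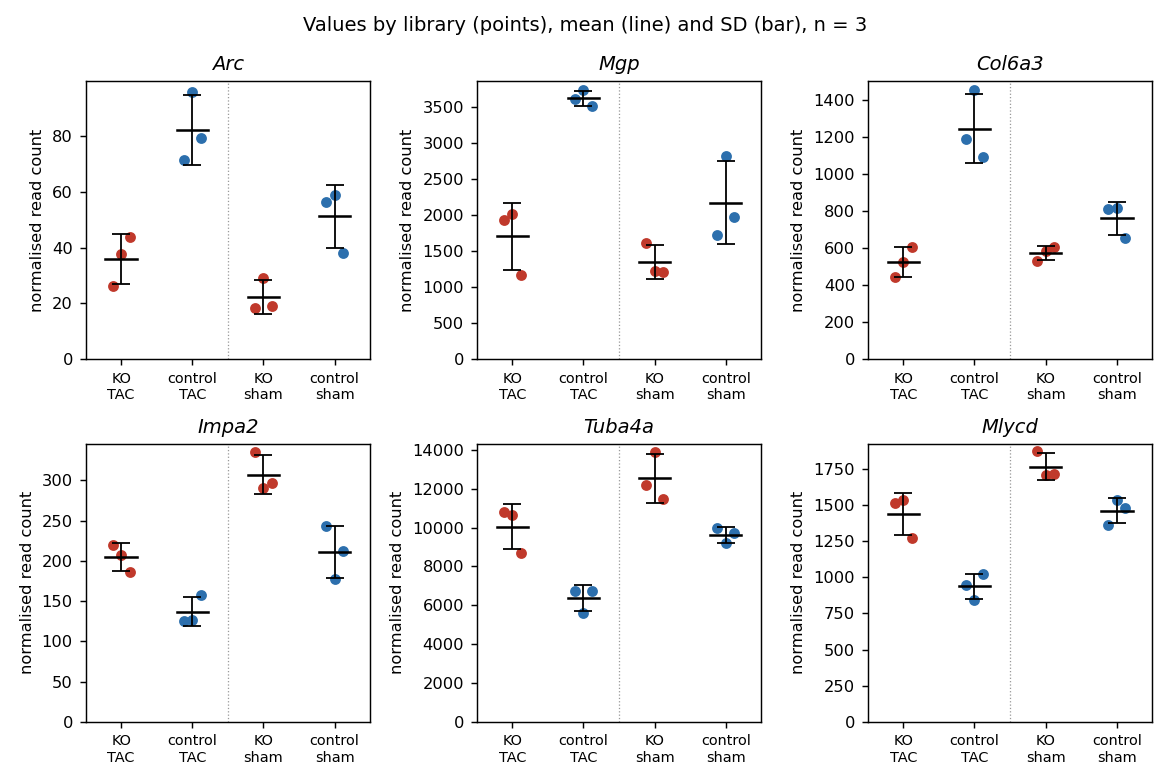
Normalised read counts of 3 leading genes lower in KO (top) and 3 higher in KO (bottom) in KO TAC, control TAC, KO sham and control sham libraries. Points are libraries, red for KO and blue for control, lines are means and bars the SD of 3 libraries; vertical axes start at 0. For each gene the KO and control points are apart on both sides of the dotted line, with KO TAC levels of Mlycd near those of control sham.

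Among the leading genes higher in KO, differences were smaller, mostly 0.40 to 0.57 on the log2 scale. Impa2, an inositol monophosphatase, had 220.2, 207 and 186 in KO TAC libraries, against 125, 127 and 158 in control TAC libraries, and 335, 290.1 and 297 in KO sham libraries, against 243, 178 and 212 in control sham libraries. Its difference was 0.57 ± 0.11 (limma adjusted p = 0.139), nearly the same after TAC, 0.59 ± 0.16, and after sham, 0.55 ± 0.16. KO TAC and control sham libraries overlapped.

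Tuba4a (chr1:75214228-75219865, minus strand), an alpha tubulin of striated muscle and brain, was the most abundant of the 24. It had 10806, 10629 and 8709.7 in KO TAC libraries, against 6748, 5584 and 6749.9 in control TAC libraries, and 12204, 13899.8 and 11477 in KO sham libraries, against 9980.1, 9181 and 9716 in control sham libraries. Its difference was 0.52 ± 0.11 (limma adjusted p = 0.139), with 0.66 ± 0.13 after TAC and 0.38 ± 0.13 after sham. In each surgery the lowest KO library was well above the highest control library.

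Genes of mitochondria and energy metabolism were Mlycd, Mrpl48 and Prkab1. Mlycd (chr8:119394878-119411102, plus strand), malonyl-CoA decarboxylase, which removes the inhibitor of fatty acid entry into mitochondria, had 1516, 1534 and 1274 in KO TAC libraries, against 947, 847 and 1021 in control TAC libraries, and 1875, 1709 and 1717 in KO sham libraries, against 1366, 1535 and 1483 in control sham libraries. Its difference was 0.45 ± 0.10 (limma adjusted p = 0.156), with 0.62 ± 0.12 after TAC and 0.27 ± 0.12 after sham. Prkab1, a regulatory subunit of the energy sensor AMPK, had 538, 575 and 564 in KO TAC libraries, against 377, 337 and 412 in control TAC libraries, and 615, 612 and 697 in KO sham libraries, against 565, 548 and 543 in control sham libraries. The groups were further apart after TAC, 0.58 ± 0.12, than after sham, 0.22 ± 0.12, with no passing test of that inequality (limma interaction adjusted p = 0.3).

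Mrpl48, a protein of the mitochondrial ribosome, had 379, 419 and 371 in KO TAC libraries, against 256, 272 and 289.9 in control TAC libraries, and 472, 417 and 427 in KO sham libraries, against 343, 312 and 364 in control sham libraries. Fam213a, a peroxiredoxin-like protein, had 318, 319 and 309.7 in KO TAC libraries, against 197, 209 and 218 in control TAC libraries, and 278, 281 and 308 in KO sham libraries, against 209.9, 259 and 200.1 in control sham libraries. For both genes all 6 KO libraries were above all 6 controls, with differences of 0.44 ± 0.09 for Mrpl48 and 0.49 ± 0.10 for Fam213a (limma adjusted p = 0.139 each).

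Cited4, a partner of the CBP and p300 coactivators, and Ddc, dopa decarboxylase, had the widest differences among the higher genes. Cited4 had 190.2, 301 and 186 in KO TAC libraries, against 150.3, 119 and 89.5 in control TAC libraries, and 289.9, 345 and 287 in KO sham libraries, against 200.3, 188 and 263 in control sham libraries, a difference of 0.71 ± 0.16 (limma adjusted p = 0.156). Ddc had 30.9, 12.2 and 24 in KO TAC libraries, against 10.8, 5.15 and 4.66 in control TAC libraries, and 17.3, 22.8 and 38 in KO sham libraries, against 12.8, 13.3 and 5.09 in control sham libraries, a difference of 1.42 ± 0.34 (limma adjusted p = 0.192). Ddc counts were low, and its libraries of 1 group differed by up to several fold.

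Polr1e, a subunit of RNA polymerase I, had 336, 350.5 and 318 in KO TAC libraries, against 197, 292 and 281 in control TAC libraries, and 341, 348 and 294 in KO sham libraries, against 242, 213 and 236 in control sham libraries. All 6 KO libraries were above all 6 controls, with a difference of 0.46 ± 0.11 (limma adjusted p = 0.192). The differences of Snn, which encodes stannin, of Actr3b, an actin-related protein, and of Atcayos, a noncoding RNA, were 0.45 ± 0.09, 0.48 ± 0.12 and 0.41 ± 0.10. Atcayos (chr10:81194609-81210877, plus strand) overlaps Atcay on the other strand, and the sources used here do not state the strand setting of the counting, so reads of the pair cannot be told apart.

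The start regions of Mlycd and Cited4 are shown for the higher genes in the same way, Mlycd at chr8:119394644-119394893, plus strand and Cited4 at chr4:120666313-120666562, plus strand, with capitals for the same 6 motifs.
Mlycd: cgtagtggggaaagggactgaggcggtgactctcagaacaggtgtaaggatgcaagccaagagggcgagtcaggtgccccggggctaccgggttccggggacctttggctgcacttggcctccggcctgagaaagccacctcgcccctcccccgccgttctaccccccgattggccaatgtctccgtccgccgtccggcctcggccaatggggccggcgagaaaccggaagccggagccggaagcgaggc
Cited4: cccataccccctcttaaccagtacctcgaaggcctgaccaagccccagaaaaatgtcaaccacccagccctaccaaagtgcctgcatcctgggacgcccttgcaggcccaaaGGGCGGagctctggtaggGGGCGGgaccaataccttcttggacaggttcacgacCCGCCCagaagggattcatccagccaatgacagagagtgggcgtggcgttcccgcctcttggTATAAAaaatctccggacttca
The Mlycd window held none of the motifs, and the Cited4 window held 3 GC boxes and 1 TATAAA. Of the 10 higher leading genes with a RefSeq window, 6 held a GC box and 3 a TATAAA, where 32.7% and 12.4% of all windows did, and 2 held AGGTCA, where 14% did.

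Gene lists of heart biology are described by counts and medians beside those of all tested genes, which had a median of 0.02 on the log2 scale over both surgeries, 0.01 after TAC and 0.03 after sham. No member of any list passed in the surgery and genotype model. The extracellular matrix list had the lowest median over both surgeries of the 26 lists. Of its 44 members, all tested, 0 were higher and 33 lower in KO in both surgeries, where 22.2% of all tested genes were lower in both. Of the 44, 7 were lower in KO with no overlap in either surgery, against 0.568% of all genes. The median was -0.46 over both surgeries, -0.73 after TAC and -0.17 after sham, so most of the difference lay after TAC. In the model of 4 group means 12 members passed, all lower in KO, against 0.374% of all genes. Col14a1, a collagen that associates with fibrils, had 169.9, 171 and 101 in KO TAC libraries, against 257, 236 and 207 in control TAC libraries, and 87.5, 116 and 119 in KO sham libraries, against 188, 146 and 139.9 in control sham libraries, a difference of -0.62 ± 0.15 (limma adjusted p = 0.192) with no overlap in either surgery.

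Fibroblast markers also had medians below 0. Of 11 tested, 1 was higher and 8 lower in KO in both surgeries, where 28.2% and 22.2% of all tested genes were. The median was -0.31, with -0.41 after TAC and -0.13 after sham. Without KO TAC replicate 3 the TAC median of these markers was -0.13, so much of it turned on that library. Without control sham replicate 3 their sham median was -0.07. Their summed level was 21927 to 29007 in KO TAC libraries, against 29912 to 31685 in control TAC libraries, and 28480.4 to 30269.8 in KO sham libraries, against 28345 to 35326 in control sham libraries. Thus the sums were apart after TAC and overlapped after sham. Pdgfra, a growth factor receptor of fibroblasts, had 339, 407 and 395 in KO TAC libraries, against 745, 708 and 699 in control TAC libraries, and 444, 532 and 543 in KO sham libraries, against 622, 605 and 499 in control sham libraries. Postn, periostin of activated fibroblasts, had 886, 1015 and 529 in KO TAC libraries, against 2376, 2878 and 2546 in control TAC libraries, and 509.7, 367 and 348 in KO sham libraries, against 469, 572 and 352 in control sham libraries. Both overlapped after sham and were apart after TAC. The part of fibroblast number in the matrix differences was not tested.

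Fatty acid uptake and oxidation genes were mostly higher in KO in both surgeries. Of 36 tested, 25 were higher and 2 lower in both, where 28.2% of all tested genes were higher and 22.2% lower. Of the 36, 8 were higher in KO with no overlap in either surgery, against 1.14% of all genes. The median was 0.27, with 0.36 after TAC and 0.19 after sham. Without control sham replicate 3 the sham median was 0.10. Decr1, a mitochondrial 2,4-dienoyl-CoA reductase, had 6315, 6043 and 5685 in KO TAC libraries, against 4107, 3918 and 4284 in control TAC libraries, and 7113, 6525 and 6377 in KO sham libraries, against 5919.7, 6009.7 and 5218 in control sham libraries, a difference of 0.39 ± 0.10 (limma adjusted p = 0.198). Acot2, a mitochondrial acyl-CoA thioesterase, had 619.9, 535 and 577 in KO TAC libraries, against 382, 350.2 and 522 in control TAC libraries, and 877, 628 and 679 in KO sham libraries, against 573, 544 and 521 in control sham libraries, a difference of 0.44 ± 0.11. Neither gene overlapped between the genotypes in either surgery. The model of 4 group means called 5 members, all higher in KO, against 0.208% of all genes.

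Oxidative phosphorylation genes of the nucleus were higher in KO after TAC and close to even after sham. Of 52 tested, 31 were higher and 0 lower in both surgeries, where 28.2% of all tested genes were higher and 22.2% lower. There were 2 without overlap in either, against 1.14% of all genes, and the median was 0.32, with 0.63 after TAC and 0.04 after sham. Among TAC libraries 44 members were higher in KO than in controls (limma adjusted p under 0.05), against 570 of all 13916 genes. Atp5j, a subunit of ATP synthase, had 7279.7, 7826 and 5948 in KO TAC libraries, against 4082, 4595 and 5023 in control TAC libraries, and 7779, 6970.0 and 7117 in KO sham libraries, against 5884, 6832 and 6926 in control sham libraries. Its sham groups were apart by a small margin. The 7 mitochondrially encoded genes tested had a median of 0.25, with 0.38 after TAC and 0.13 after sham, which was -0.09 without control sham replicate 3. On that list of 13, 5 were at 0 in all 12 libraries: mt-Nd4l, mt-Co2, mt-Co3, mt-Atp6 and mt-Atp8. So were 2 of the oxidative phosphorylation list, Ndufs3 and Atp5o. The medians and the share of mitochondrial reads therefore leave these genes out, and why they held no reads was not tested.

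**Figure D5:**
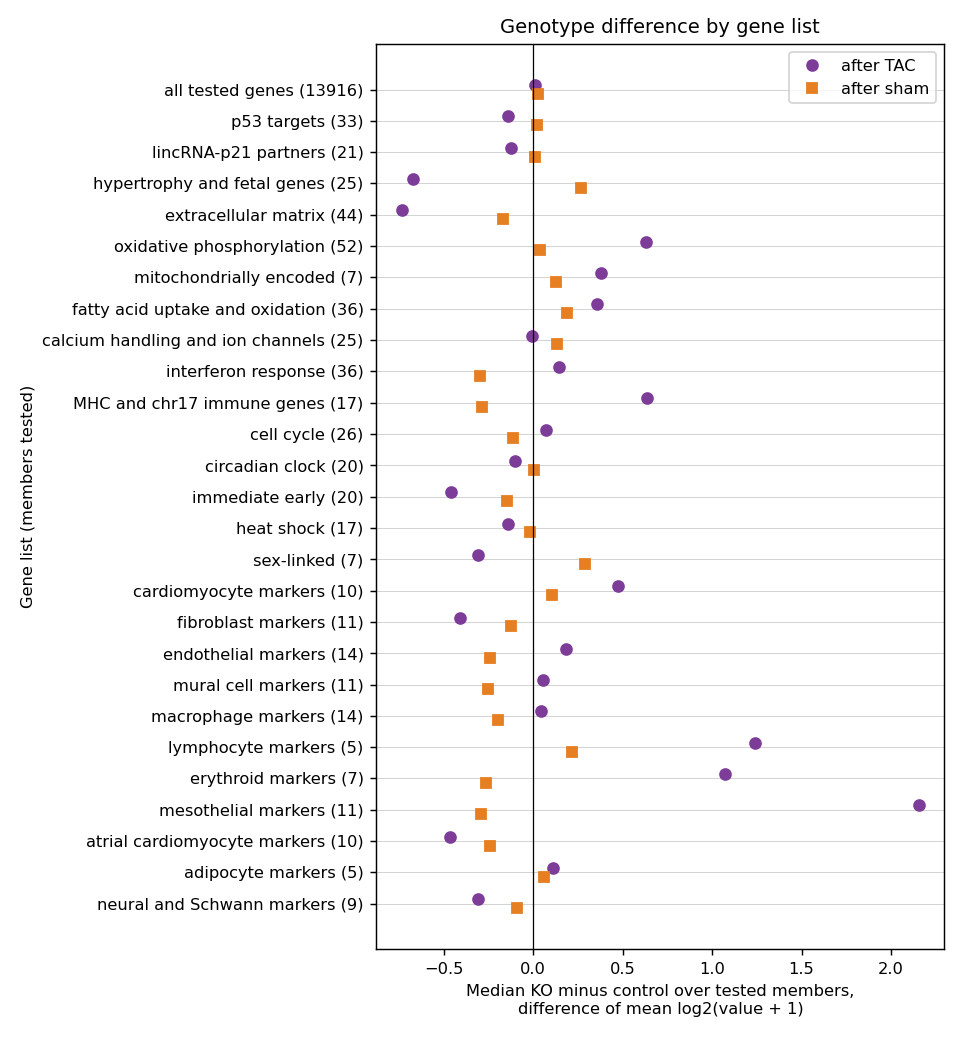
Median difference of mean log2(value + 1), KO minus control, over the tested members of each gene list and over all tested genes, after TAC (circles) and after sham (squares); the number tested is in brackets. The extracellular matrix median is below 0 after both surgeries and the fatty acid median above 0 after both, while the hypertrophy, interferon, endothelial and mesothelial medians lie on opposite sides of 0.

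Of the 11 cell type marker lists, the cardiomyocyte markers alone had a summed level that did not overlap between the genotypes in either surgery. It was 1093642 to 1188926 in KO TAC libraries, against 958762 to 1018052 in control TAC libraries, and 1166197 to 1235384 in KO sham libraries, against 1065758 to 1076488 in control sham libraries. Of 10 markers, 6 were higher and 0 lower in KO in both surgeries, where 28.2% and 22.2% of all tested genes were, with a median of 0.31. The markers did not all go 1 way after TAC. Among TAC libraries 6 passed higher and 2 lower in KO (limma adjusted p under 0.05), against 570 and 575 of all 13916 genes. The interaction test called 1 of the 10 markers, against 0.309% of all genes, and that marker was lower in KO after TAC and higher after sham. Actc1, cardiac alpha actin, had 199656, 189587 and 178654 in KO TAC libraries, against 134244, 142688 and 142683 in control TAC libraries, and 228536, 218983 and 179451 in KO sham libraries, against 182957, 162299 and 139098 in control sham libraries. Its sham groups overlapped, and the difference was 0.40 ± 0.10 (limma adjusted p = 0.2). The part of the share of cardiomyocyte RNA in the higher metabolic genes was not tested.

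More p53 targets were lower than higher in KO in both surgeries, with no passing member and no test of the list. Of 33 tested, 7 were higher and 11 lower in KO in both surgeries, 21.2% and 33.3% against 28.2% and 22.2% of all genes, none without overlap in both, and the median was -0.06. Polk, a DNA polymerase of damage bypass, had the smallest p of the list, with 77.2, 57.7 and 68.7 in KO TAC libraries, against 104, 62.8 and 110.0 in control TAC libraries, and 61, 52 and 42.5 in KO sham libraries, against 83.1, 74.1 and 59.3 in control sham libraries. Its groups overlapped in both surgeries, and its difference was -0.44 ± 0.17 (limma adjusted p = 0.281). Proteins and targets linked to lincRNA-p21 numbered 21, with 1 higher and 4 lower in both surgeries and a median of -0.04.

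Immediate early genes were lower in KO in both surgeries for 11 of 20 members, and higher for 1, with a median of -0.23. Of all tested genes, 22.2% were lower and 28.2% higher in both. No member passed, and none was without overlap in both surgeries. Myc, a growth regulator, had 49.2, 44.4 and 45.8 in KO TAC libraries, against 137, 133 and 59.7 in control TAC libraries, and 21.4, 21 and 36.2 in KO sham libraries, against 23.4, 57 and 45.8 in control sham libraries. Junb, an AP-1 subunit, had 231, 195 and 216 in KO TAC libraries, against 520.2, 539 and 194 in control TAC libraries, and 106, 236 and 199.9 in KO sham libraries, against 179, 298 and 303 in control sham libraries. For Junb the control TAC replicate 3 library was below all KO TAC libraries, and for Myc it was the lowest control TAC library. This is the library in which Cdkn1a was also low. Egr3, an early response transcription factor, was at 30.9, 47.7 and 32.7 in KO TAC libraries, against 353, 329 and 24.2 in control TAC libraries, with control TAC replicate 3 again lowest. Its sham groups overlapped, at 9.16, 17.3 and 24.4 in KO libraries, against 22.4, 57.0 and 28.0 in control libraries.

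Several lists had medians on opposite sides of 0 after the 2 operations. The 25 hypertrophy and fetal genes had a median of -0.67 after TAC and 0.27 after sham, and -0.08 over both. The 36 interferon response genes had 0.14 after TAC and -0.30 after sham, and -0.08 over both. Of these, 3 were higher and 13 lower in both, where 28.2% and 22.2% of all tested genes were. The 14 endothelial markers had 0.19 after TAC and -0.24 after sham, and -0.03 over both. Without control sham replicate 3 the endothelial median was -0.06 after sham and 0.05 over both, so most of its sham difference turned on that library. The 11 mesothelial markers had 2.15 after TAC and -0.29 after sham, and 0.68 over both. Mesothelial counts were low: Muc16 had 20.3, 26.6 and 13.1 in KO TAC libraries, against 6.49, 0 and 0 in control TAC libraries, and 30.5, 20.1 and 11.8 in KO sham libraries, against 58.6, 7.6 and 21.2 in control sham libraries. The sums over all 12 mesothelial markers overlapped in both surgeries. Cell cycle, circadian clock and heat shock lists had medians of -0.08, -0.03 and -0.15.

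The genotype difference ran with transcript length. Across genes its Spearman correlation with length was -0.363 over both surgeries, -0.473 after TAC and 0.086 after sham. The median difference after TAC was 0.40 for the 796 tested genes under 1 kb and -0.46 for the 794 over 8 kb. After removal of the trend with length and GC content in each library, the list medians over both surgeries were -0.40 for extracellular matrix, 0.26 for fatty acid genes and 0.23 for oxidative phosphorylation, and the surgery and genotype model called 1 gene, Mgp. Single genes with long transcripts came nearer to 0, Lrp1 to -0.57 and Col6a3 to -0.59, while Arc was at -1.16 and Tuba4a at 0.51. The part of RNA integrity or library preparation in the length relation was not tested.

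Unequal genotype differences in the 2 operations were tested by the interaction. It called 43 genes (0.309%), of which 33 had opposite signs after TAC and after sham, and 41 were more negative after TAC. Thbs4, a thrombospondin of stressed muscle, had 121, 91 and 70.9 in KO TAC libraries, against 779, 1177 and 991 in control TAC libraries, and 74.3, 51.1 and 50.7 in KO sham libraries, against 59.7, 65.5 and 61.9 in control sham libraries. Its 3 control TAC libraries stood far above the other 9. Its difference over both surgeries, -1.75 ± 0.52, is thus an average of -3.38 after TAC and -0.11 after sham, and does not describe either. Ppargc1b, a coactivator of mitochondrial genes, shows the opposite-sign case, with 176, 166 and 179 in KO TAC libraries, against 413, 444 and 447 in control TAC libraries, and 273, 380.4 and 261 in KO sham libraries, against 268, 176 and 169 in control sham libraries.

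Near the deleted gene, genes with a small p were about as frequent as elsewhere. Within 5 Mb of Trp53cor1, 213 genes were tested, 0 passed, and 34 (16.0%) had an unadjusted p under 0.05, against 13.8% of all genes. Their median difference was 0.02, and 2 did not overlap in either surgery, where 1.71% of all genes did not. On chromosome 17, 11% of tested genes had an unadjusted p under 0.05 with the same sign in both surgeries, against 12.7% of all genes. Srsf3, a splicing factor and the nearest tested gene after Cdkn1a, at 14.1 kb, had a difference of -0.02 ± 0.11. Eci1, an enoyl-CoA isomerase of fatty acid oxidation, had the smallest p in the window, with 3801, 4026 and 3398 in KO TAC libraries, against 2210.4, 2148 and 2279 in control TAC libraries, and 4464, 4339 and 3927 in KO sham libraries, against 3658, 4050.2 and 3960.3 in control sham libraries. After TAC its level was higher in KO than in controls, by 0.75 on the log2 scale (limma adjusted p = 0.002), and its sham groups overlapped. Pkd1, Notch3, Tmem8 and Fahd1 followed, with differences of -0.66, -0.40, 0.39 and 0.29 and no separation of the genotypes after sham.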

How the data were processed

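Polyadenylated RNA of 12 left ventricle apex samples was sequenced from stranded mRNA libraries, per the labels' protocols. Build GRCm38.p6, STAR, SAMtools and featureCounts are named in the submitters' processing notes; the sources used here state no version, annotation or strand setting. The values in the table the authors deposited are normalised signal, namely reads of each gene over 1 size factor per library, as read from the values: 100% were whole multiples of 1 step per library within 0.01, and the factors equalled median-of-ratios factors of the recovered reads.

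Gene names, positions and lengths came from GENCODE M21 (55480 of 56350 IDs matched, 55180 with the same version; the 870 others held 0.0013% of reads). Genes that reached a value of 10 in 3 or more libraries were fitted by limma-trend (limma 3.58.1, R 4.3.3, robust moderation) on log2(value + 1), with surgery and genotype as terms and Benjamini-Hochberg adjustment over all tested genes at 0.05; fold differences on this scale understate the change of low genes. A gene counted when it passed with the same sign in both surgeries. A model with 4 group means gave differences within each surgery, their mean and the interaction. edgeR 4.0.16 (quasi-likelihood), DESeq2 1.42.0 and limma-voom with quality weights were run on recovered reads. Trp53cor1 and Cdkn1a were compared by two-sided exact permutation tests. Fits were tested on simulated data. Intervals and floors cover counting error only.

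The genes named were Trp53cor1, Cdkn1a, 12 leading genes per direction (smallest p, same sign, no overlap in either surgery, at least 1 CPM, no predicted genes), up to 3 members of each of 26 lists by p, 5 neighbours within 5 Mb of Trp53cor1, and the 5 smallest interaction p; where a list's members are not all described, the rest are not reported here. The comparison, lists and rules were chosen with earlier results of these data known. Promoter windows of 250 bases came from RefSeq.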

Additional observations from a re-analysis of the deposited data

Results flagged for a closer look

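The genotype difference after TAC was unlike that after sham, by the interaction test of the 4 group means (limma, Benjamini-Hochberg adjusted p), for 7 of the genes named. The test called 43 of 13916 genes (0.309%). Of the 7, Thbs4, Comp, Ppargc1b, Atp8a2 and Cilp were named because they had the smallest p in this same test. The count of 7 is therefore no separate result. On the log2 scale, the difference after TAC minus that after sham was -3.27 ± 0.31 (SE) for Thbs4 (adjusted p = 0.0001), -3.31 ± 0.40 for Comp, a cartilage oligomeric matrix protein of the same thrombospondin family (adjusted p = 0.0018), and -3.09 ± 0.40 for Cilp, a matrix protein of cartilage and stressed myocardium (adjusted p = 0.0043). In these genes the control TAC libraries were high and the other 3 groups low. Comp had 22.2, 43.3 and 38.2 in KO TAC libraries, against 376, 546 and 459 in control TAC libraries, and 28.5, 31 and 40.7 in KO sham libraries, against 39.4, 35.1 and 64.4 in control sham libraries.

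The atrial light chain Myl7 was unequal by the same test, at -5.44 ± 1.02 (adjusted p = 0.032), and so was the endocytic receptor Lrp1, at -1.26 ± 0.23 (adjusted p = 0.025). Ppargc1b, at -1.91 ± 0.26 (adjusted p = 0.0043), and Atp8a2, a phospholipid flippase, at -1.58 ± 0.22 (adjusted p = 0.0043), differed in opposite directions. Atp8a2 had 169.9, 171 and 158 in KO TAC libraries, against 283, 349 and 296 in control TAC libraries, and 120.0, 139.6 and 154 in KO sham libraries, against 88.4, 77.9 and 87.3 in control sham libraries, with no overlap in either surgery. With the length and GC trend removed from each library, 20 genes passed this test in place of 43. Groups of 3 libraries are too small to be searched for outlying samples.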

How the results depend on the processing

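The count of genes passing for genotype with the same sign in both surgeries was 0 and stayed 0 with TMM scaling, a pseudocount of 0.5 or 5, a value of at least 10 in all libraries, no surgery covariate, no robust moderation and the replicate block. It was 184 with DESeq2, 241 with voom and quality weights, 81 for the mean of both differences in 4 group means, 6 with no filter on low values, 1 with edgeR, 1 with the length and GC trend removed and 1 with that and the replicate block, and 0 to 28 when 1 library was left out (28 without control sham replicate 3). The number of genes with p under 0.05 in both surgeries, 92, was 207 with voom and 53 to 135 when 1 library was left out. Interaction calls, 43, were 480 with DESeq2, 1573 with voom, 20 with the length and GC trend removed, 124 with no filter, 65 with a pseudocount of 5 and 8 to 758 when 1 library was left out (8 without control TAC replicate 2, 758 without control sham replicate 1).

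Some alternatives were chosen after seeing the data. Leaving out control sham replicate 3 and KO TAC replicate 3 together gave 2 genes passing for genotype, 180 with p under 0.05 in both surgeries, 1161 interaction calls, 1324 passing for the mean of both differences and 842 without overlap. The 81 genes passing for that mean were 492 with DESeq2, 91 with edgeR, 1206 with voom, 126 with no filter and 15 to 520 when 1 library was left out. The 238 genes without overlap were 270 to 569 when 1 library was left out, since fewer libraries make overlap rarer.

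The Trp53cor1 difference was -1.60 to -0.99 and the Cdkn1a difference -1.27 to -0.54 when 1 library was left out. Of 102 named genes, 2 turned sign, both with adjusted p over 0.8: Atp8a2 (0.15 with the length and GC trend removed, with or without the replicate block; -0.22 to 0.030 when 1 library was left out) and Eif2s3x (-0.18 to 0.030 when 1 library was left out). None of the 24 leading genes turned sign. All 24 passed in DESeq2 and 23 in voom, 10 without control sham replicate 3, and 1, Sln, in edgeR. The 24 were chosen in these same libraries for small p, same sign and no overlap, so these counts are no separate support. Same-numbered libraries of different groups correlated at -0.072 to 0.249, and other-numbered ones at -0.255 to 0.156. These ranges overlap and do not settle whether the replicate numbers pair the samples, which the labels do not state. With the replicate block the smallest adjusted p was 0.133, and exact p was 0.0556 for Trp53cor1 and 0.0926 for Cdkn1a; calls for the mean of both differences were 103 and interaction calls 47. Low-count genes (Trp53cor1, Sln after sham, Ddc) are limited by depth.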

Other observations

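The 5 tested lymphocyte markers had a median difference of 0.76, with 1.24 after TAC and 0.22 after sham, and Ighm, the immunoglobulin heavy chain of B cells, had 179.6, 352 and 125 in KO TAC libraries, against 47.6, 70.0 and 175 in control TAC libraries, and 125, 109 and 128 in KO sham libraries, against 101, 74.1 and 149 in control sham libraries, with overlap in both surgeries. The 7 erythroid markers had 1.07 after TAC and -0.26 after sham. Alas2, the erythroid enzyme of haem synthesis, had 324, 366 and 168 in KO TAC libraries, against 162, 133 and 98.8 in control TAC libraries, and 193, 201 and 266 in KO sham libraries, against 283, 254 and 242 in control sham libraries, and was higher in KO than in controls among TAC libraries (limma adjusted p = 0.019), with a difference of -0.25 ± 0.25 among sham libraries. The 9 neural and Schwann cell markers had a median of -0.18, with 0 higher and 4 lower in KO in both surgeries, and the 5 adipocyte markers a median of 0.46, with 2 higher and 0 lower. Of all tested genes, 28.2% were higher and 22.2% lower in both. The neural sham median, -0.09, was 0.08 without control sham replicate 3. The adipocyte TAC median, 0.11, was 0.67 without KO TAC replicate 3.

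Per1, a clock gene, was lower in KO in both surgeries: 403, 486 and 473 in KO TAC libraries, against 960.3, 1027 and 572 in control TAC libraries, and 592, 494 and 649 in KO sham libraries, against 631, 1278 and 558 in control sham libraries. Its groups were apart after TAC and overlapped after sham, its difference was -0.64 ± 0.20 (limma adjusted p = 0.225), and the sources used here state no time of day of collection. Among genes of calcium handling and ion channels, Kcnip2, a subunit of the transient outward potassium channel, had 1725, 1789 and 1964 in KO TAC libraries, against 1402, 1475 and 1823 in control TAC libraries, and 2461, 2522 and 2395 in KO sham libraries, against 2019, 2270.0 and 2111 in control sham libraries. It was apart after sham and overlapped after TAC, with a difference of 0.22 ± 0.09 (limma adjusted p = 0.318).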
